A study of Mus musculus with 30 samples.

Results

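Myotubes kept without serum and given metformin (MET) were compared with myotubes kept in 2% horse serum (2% HS), across all genes counted. The comparison takes 12 of the 30 libraries of the series, the 6 titled as serum deprived with metformin and the 6 titled as control, and the members were chosen by those titles alone. Of the 55487 genes in the count table, 15907 had enough counts to be tested. All libraries came from 1 line, C2C12, a wild-type mouse myoblast line that fuses into multinucleated myotubes when serum is lowered. All groups were differentiated for 4 days in low-glucose medium with 2% horse serum. The 2% HS group then stayed in that medium for 4 further days, and the MET group spent those 4 days in medium with no serum and with 100 nM metformin, so that both were collected at 8 days. The groups thus differ in serum and in metformin at once, and the effects of the 2 cannot be told apart between them. The 6 libraries of serum deprivation without metformin (SD) are therefore set beside many of the results. Where no SD value is given, a difference describes MET vs. 2% HS only. The study asked how metformin, alone or with leucine, acts on myotubes that lose serum.

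Serum supplies growth factors, hormones, lipids and binding proteins, and differentiated myotubes that lose it shrink and reduce protein synthesis. Metformin is a biguanide drug for diabetes that inhibits complex I of the mitochondrial respiratory chain and, at high doses, activates AMP-activated protein kinase (AMPK), the energy sensor of the cell. Among the transcription factors that link nutrient and oxygen supply to gene expression, the hypoxia-inducible factors raise glycolytic and angiogenic genes when oxygen is low or growth signalling is high. Atf4 raises genes of amino acid supply when translation initiation factor eIF2 is phosphorylated.

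The libraries held between 12784960 and 19604103 counts in 2% HS and between 14613457 and 16756628 in MET. Levels are CPM, counts divided by the library's size after scaling by the TMM method of edgeR, and differences are log2 fold changes with their standard errors (SE). A gene is called when the quasi-likelihood test of edgeR gave it an adjusted p under 0.05, where the adjustment (Benjamini-Hochberg) ran over all 15907 genes. The labels do not say that the 6 replicates came from separate cultures, so p-values measure only the spread between these samples. Nuclear ribosomal RNA took 0.217 to 0.702% of the counts in 2% HS and 0.317 to 0.743% in MET. Mitochondrial ribosomal RNA took 0.219 to 0.306% and 0.244 to 0.705%. Another library of the series, MET+LEU replicate 6, held 5.85% and 7.64%. It is in neither group but enters the estimate of the spread, and without it 6043 genes were called rather than 5563.

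Markers of the labelled cell type were abundant. The summed level of 10 myotube markers lay between 39600 and 42600 CPM in 2% HS and between 28800 and 32700 CPM in MET, with 6 of the 10 called lower and 0 higher. A list of 8 fibroblast markers summed to 2990 to 3300 CPM in 2% HS and to 5400 to 5730 CPM in MET. All 7 of its tested members were higher, and Thy1, a surface protein that defines fibroblasts, was not tested, with at most 2 counts in a library of either group. Myoblast markers summed to 549 to 577 CPM and 495 to 525 CPM, with 2 of the 6 called lower and 2 higher. The adipocyte list summed to 12.8 to 16.7 CPM and 12.3 to 17.8 CPM, with Lep and Cfd at 0 in all 12 libraries. The leukocyte list summed to 3.45 to 4.80 CPM and 3.68 to 6.90 CPM, with Adgre1 at 0. The endothelial list summed to 2.78 to 4.11 CPM and 1.34 to 2.81 CPM, with Emcn at 0. Osteoblast markers summed to 121 to 132 CPM in both groups, and Schwann and neural markers to 1280 to 1400 CPM and 1330 to 1470 CPM. In bulk RNA, fewer cells of a type and less RNA per cell cannot be told apart.

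Promoters of 4 genes that fell are shown first, because a response element known for each gene's pathway lies close to the start. Each run is the 250 bases before the transcription start, 5′ to 3′ in the direction of the gene, from RefSeq on GRCm38.p6. Capitals in Car9 (chr4:43506776-43507025, plus strand) and Ero1l (chr14:45318573-45318822, minus strand) mark the core of the hypoxia response element, ACGTG, read on either strand. Capitals in Chac1 (chr2:119350992-119351241, plus strand) and Asns (chr6:7693210-7693459, minus strand) mark TGATGNAA, a form of the amino acid response element that Atf4 binds with a C/EBP partner. In Car9, Ero1l and Chac1 the match lies on the other strand, so the capitals show its reverse complement.
Car9: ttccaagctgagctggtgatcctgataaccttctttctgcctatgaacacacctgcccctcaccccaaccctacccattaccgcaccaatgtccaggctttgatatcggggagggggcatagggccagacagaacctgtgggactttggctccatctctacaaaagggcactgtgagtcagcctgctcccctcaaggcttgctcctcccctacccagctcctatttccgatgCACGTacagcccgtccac
Ero1l: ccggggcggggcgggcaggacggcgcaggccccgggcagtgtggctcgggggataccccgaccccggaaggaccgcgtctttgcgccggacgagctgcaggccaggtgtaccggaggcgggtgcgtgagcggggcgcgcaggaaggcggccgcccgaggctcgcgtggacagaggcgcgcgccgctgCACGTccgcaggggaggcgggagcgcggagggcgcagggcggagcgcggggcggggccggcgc
Chac1: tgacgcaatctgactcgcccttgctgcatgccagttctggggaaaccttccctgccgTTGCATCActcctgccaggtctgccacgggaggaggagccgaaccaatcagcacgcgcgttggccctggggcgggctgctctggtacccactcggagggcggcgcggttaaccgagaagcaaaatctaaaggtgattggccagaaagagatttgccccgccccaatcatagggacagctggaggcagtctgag
Asns: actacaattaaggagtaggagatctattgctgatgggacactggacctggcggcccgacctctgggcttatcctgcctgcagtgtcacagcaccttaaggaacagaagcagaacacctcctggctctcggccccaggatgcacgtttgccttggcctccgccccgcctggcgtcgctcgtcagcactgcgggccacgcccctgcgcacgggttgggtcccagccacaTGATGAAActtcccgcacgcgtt

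The match begins 18 bases before the start in Car9, 63 before it in Ero1l, 193 before it in Chac1 and 23 before it in Asns. These distances are from the RefSeq start that defines each window. The gene starts of GENCODE M21 lie upstream of it in all 4 genes, and by them the matches of Car9, Ero1l and Asns fall inside the gene. The core ACGTG also lies inside the E-box CACGTG, which holds it on both strands, so that a match does not name a factor. It was found on either strand in 19.6% of the 32851 windows in the table (250 bases before to 50 after the start, 300 bases in all) and in 24.9% of the 13377 windows of tested genes. Among the lists described below it was found in 20 of 45 windows of hypoxia-inducible factor genes and targets, 16 of 35 of glycolysis and 9 of 16 of glycogen metabolism, and in 11 of 34 of the integrated stress response. Many targets in the hypoxia list are known through this element, so its share there is not independent of how the list was made. The 45 windows cover 32 of the 40 genes of that list. The glycogen list was written after values were seen, and the shares in it and in glycolysis were not tested. TGATGNAA was found in 3.97% of all windows, in 2.18% of those of tested genes and in 8 of 34 windows of the integrated stress response list. That list includes known targets of Atf4, so its share is likewise not independent of how the list was made. A match describes letters and does not show that a factor is bound.

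MET differed from 2% HS in 5563 genes, 35% of those tested, with 2775 higher (17.4%) and 2788 lower (17.5%). The changes were mostly small. Called genes had a median absolute log2 fold change of 0.31, and 91.8% of them changed by less than 2-fold. At least 2-fold changes numbered 202 higher (1.27%) and 256 lower (1.61%). In 1555 genes (9.78%) all 6 MET libraries lay above all 6 libraries in 2% HS, and in 1666 genes (10.5%) they lay below. The largest rises and falls named below were picked from genes whose groups did not overlap, so for them separation follows from the choice. Counts of called members in the lists below are to be read beside the 35% of all genes. The median log2 fold change over all genes was -0.0011. TMM scaling centres the differences, so a shift common to most genes could not be seen here and directions are relative to the other genes. MET vs. SD called 25 genes (0.157%) in the same fit, and SD vs. 2% HS called 4424 (27.8%). These comparisons share libraries with MET vs. 2% HS, and values are given side by side only.

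**Figure D1:**
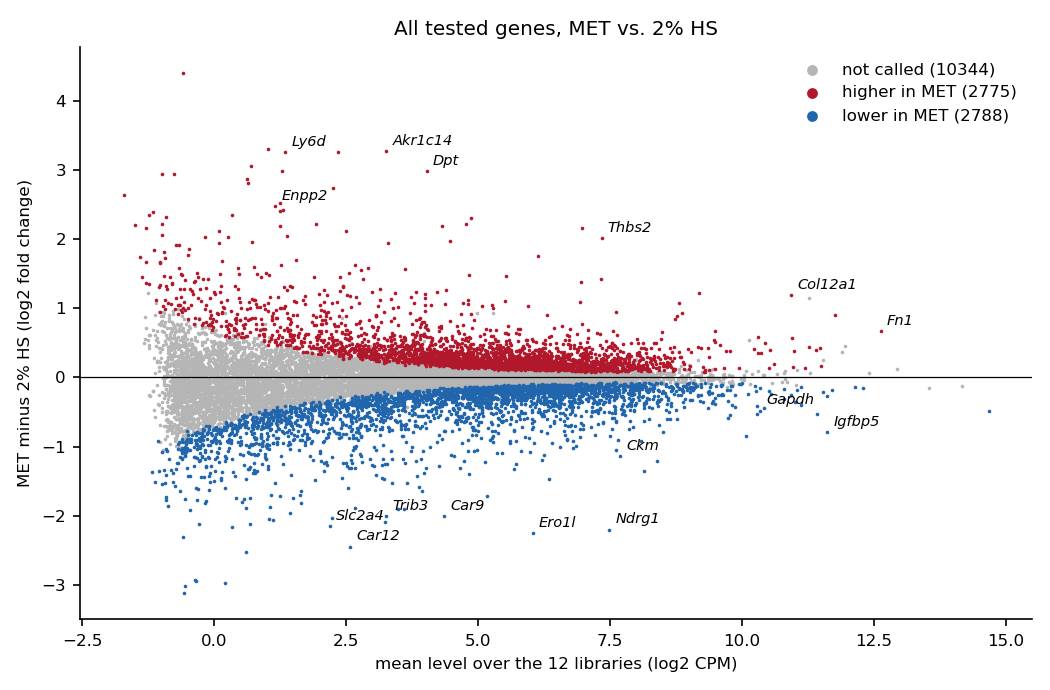
All 15907 tested genes by mean level over the 12 libraries (x axis, log2 CPM) and difference between MET and 2% HS (y axis, log2 fold change), with genes called higher in red, lower in blue and not called in grey. The 2775 higher and 2788 lower genes spread evenly about 0, with Akr1c14 and Dpt at the top and Car12, Ero1l and Ndrg1 at the bottom.

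The genes that fell most were led by targets of the hypoxia-inducible factors. Car12 (chr9:66713686-66766845) and Car9 (chr4:43506966-43513729) encode membrane carbonic anhydrases that keep the pH of hypoxic cells. Ndrg1 (chr15:66929318-66969640) is a growth-arrest and stress gene, and Ero1l (chr14:45283087-45318771) encodes the oxidase that drives disulfide bond formation in the endoplasmic reticulum. Coordinates of genes are those of GENCODE M21 on GRCm38. Ndrg1 lay between 333 and 482 CPM in 2% HS (median 369) and between 69.5 and 94.2 CPM in MET (median 84.4), a log2 fold change of -2.20 (SE 0.20, edgeR adjusted p = 8.2e-10). Ero1l lay between 119 and 176 CPM (median 139) and between 24.4 and 35.5 CPM (median 29.4), a log2 fold change of -2.25 (SE 0.19, adjusted p = 1.8e-10). The groups did not overlap for either gene. Car9 went from 35.1 to 50.9 CPM (median 39.0) to 8.05 to 14.6 CPM (median 9.76), and fell by 2.01 on the log2 scale (SE 0.21). Car12 went from 11.5 to 16 CPM (median 13.3) to 2.20 to 2.95 CPM (median 2.46), and fell by 2.45 (SE 0.16). The groups of these genes did not overlap either, as the rule that picked the largest falls required of each. In SD the medians were 123 CPM for Ndrg1, 41.8 for Ero1l, 16.4 for Car9 and 3.18 for Car12, and the MET minus SD log2 fold changes of -0.65, -0.50, -0.68 and -0.43 did not pass the test (adjusted p between 0.20 and 0.42).

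After these genes were seen, a list of 40 hypoxia-inducible factor genes and known targets was written, and it is given as a description. Of the 39 tested, 30 were lower, 3 were higher and 6 were not called, with a median log2 fold change of -0.43. Adm, the vasodilator adrenomedullin, fell from 20.1 to 28 CPM (median 22.5) to 5.23 to 6.84 CPM (median 6.39), by 1.90 on the log2 scale. Edn1, the vasoconstrictor endothelin, fell by 1.95, from a median of 4.82 to 1.23 CPM. Vegfa, the main angiogenic growth factor, fell by 0.92 from a median of 369 to 197 CPM (adjusted p = 2.2e-15), with 360 CPM as the lowest value in 2% HS and 213 CPM as the highest in MET. Hif1a itself, the regulated subunit, moved by -0.17 (adjusted p = 0.0029) with overlapping groups, and its protein was not measured here. Vhl, Arnt, Narf, Plod1, Plod2 and Stc2 were not called. The 3 called higher were Lox (0.44), the enzyme that cross-links collagen, and Hif1an and Tfrc (0.14 each). The list's median was -0.40 in SD vs. 2% HS and -0.13 in MET vs. SD, where the medians over all genes were 0.0028 and -0.0047 and Bhlhe40 was the 1 member called.

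Genes of glycolysis and glucose uptake were nearly all lower. Of 23 tested genes, 21 were lower and 0 were higher (91.3% called, against 35% of all genes), with a median of -0.41 and a range from -2.15 to 0.07. Slc2a4, the insulin-regulated glucose transporter Glut4, lay between 8.50 and 10.9 CPM in 2% HS (median 9.22) and between 1.73 and 2.51 CPM in MET (median 2.10), a log2 fold change of -2.15 (SE 0.16, edgeR adjusted p = 9.4e-16). Slc2a1, the basal glucose transporter Glut1, fell from 123 to 153 CPM (median 131) to 61.8 to 75.6 CPM (median 63.8), by 1.01 on the log2 scale. Hk2, which phosphorylates glucose in muscle, fell by 0.99 (SE 0.07) from a median of 162 to 81.9 CPM. Pfkfb3, which makes the activator of phosphofructokinase, fell by 1.22 (SE 0.11) from a median of 53.2 to 22.2 CPM. In each of these 4 genes the groups did not overlap. Gapdh fell by 0.48 on the log2 scale, from 1451 to 1572 CPM down to 1041 to 1158 CPM, and Ldha by 0.26, so that a common reference gene was not stable between these groups. Pfkp (-0.11) and Aldoc (0.07) were not called. The list's median was -0.29 in SD vs. 2% HS and -0.12 in MET vs. SD.

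Glycogen metabolism, another list written after values were seen, had 13 of 16 tested genes lower and 1 higher, with a median of -0.56. Ppp1r3b and Ppp1r3c, the subunits that bring protein phosphatase to glycogen, fell by 1.82 and 1.70 on the log2 scale, from medians of 5.73 and 5.32 CPM to 1.45 and 1.59 CPM. Gys1, the glycogen synthase of muscle, lay between 235 and 244 CPM in 2% HS (median 238), between 157 and 172 CPM in SD (median 163) and between 135 and 150 CPM in MET (median 143). The 3 groups of Gys1 did not overlap. It was called in MET vs. 2% HS (-0.74, SE 0.04, edgeR adjusted p = 6.6e-22) and in MET vs. SD (-0.19, SE 0.04, adjusted p = 0.014). Pgm1, which feeds the pathway with glucose 1-phosphate, fell by 0.78, the branching enzyme Gbe1 by 0.77 and the muscle phosphorylase Pygm by 0.63. Pygb, the brain form of phosphorylase, was higher by 0.29. The list's median was -0.46 in SD vs. 2% HS and -0.09 in MET vs. SD, where Gys1 was the 1 member called.

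The integrated stress response and amino acid supply list was also mostly lower. Of 30 tested genes 21 were lower and 2 higher, with a median of -0.33. Trib3 (chr2:152337422-152344032), a pseudokinase induced by Atf4, lay between 16.6 and 22.4 CPM in 2% HS (median 18.5) and between 4.02 and 5.46 CPM in MET (median 4.68), a log2 fold change of -2.01 (SE 0.24, edgeR adjusted p = 1.7e-07). Chac1, which degrades glutathione, went from 28.7 to 34.8 CPM (median 33.9) to 14.7 to 15.6 CPM (median 15.1), and fell by 1.12 (SE 0.09). It was lower in MET than in SD too (-0.43, SE 0.09, adjusted p = 0.035), where SD lay between 16.8 and 24.2 CPM. Asns, asparagine synthetase, fell by 0.61 (SE 0.05) from a median of 60.1 to 37.9 CPM. The groups of Trib3, Chac1 and Asns did not overlap. Cth, which makes cysteine, fell by 1.88, and the stress hormones Gdf15 and Fgf21 by 1.64 and 1.31. Vldlr, a lipoprotein receptor that also answers to hypoxia, fell by 1.47 and stands in both lists. The amino acid transporter Slc7a5 fell by 0.68 vs. 2% HS and by 0.18 vs. SD (adjusted p = 0.041). Atf4 itself was not called (0.07, adjusted p = 0.11), at 253 to 277 CPM in 2% HS and 263 to 294 CPM in MET. The 2 higher genes were Cebpb (0.50) and Ppp1r15a (0.32). The list's median was -0.27 in SD vs. 2% HS and -0.15 in MET vs. SD.

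**Figure D2:**
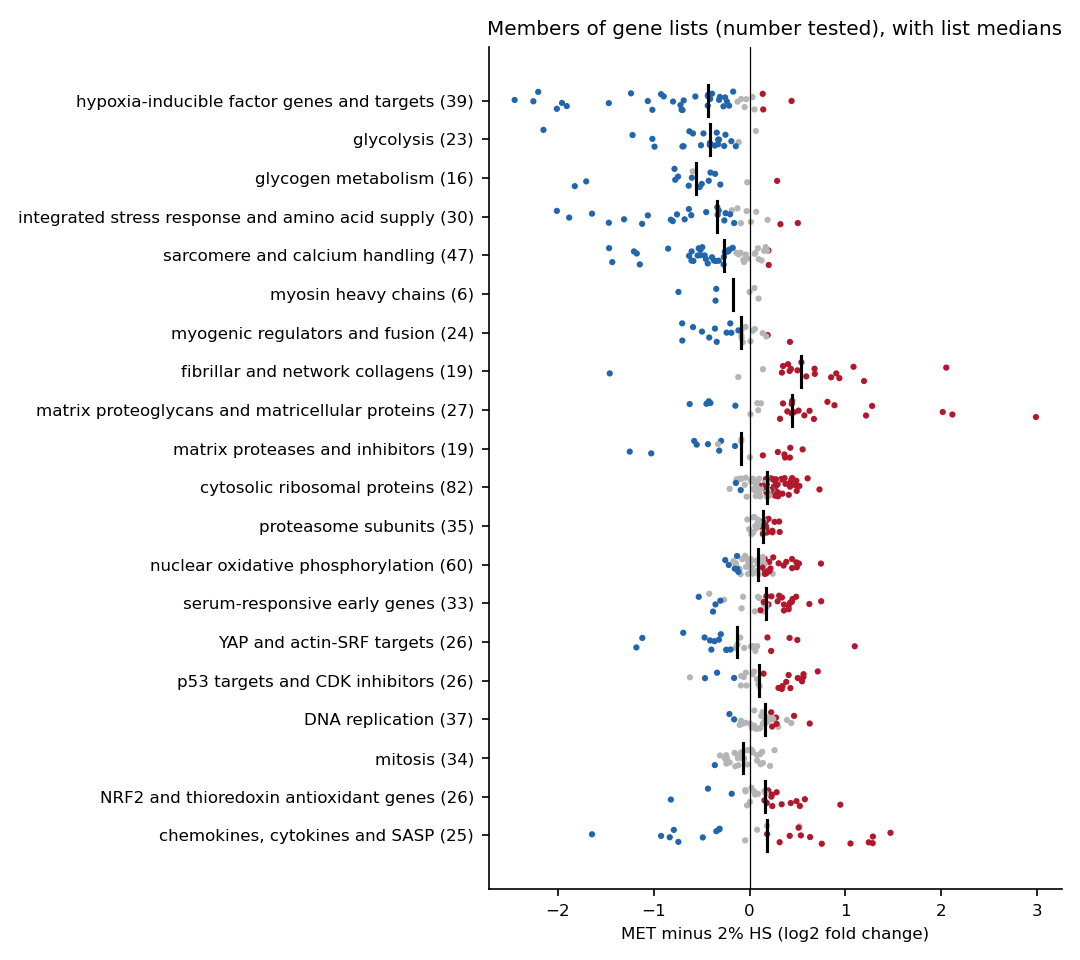
Log2 fold change between MET and 2% HS (x axis) of each tested member of 20 gene lists (y axis, number tested in brackets), coloured red where called higher, blue where called lower and grey where not called, with the list median as a black bar. Hypoxia-related, glycolytic, glycogen and stress response genes lie mostly left of 0, and collagens and matrix proteins mostly right of it.

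The contractile apparatus was lower in part. Of 47 sarcomere and calcium handling genes 29 were lower and 2 higher (66% called, against 35% of all genes), with a median of -0.27. The list's median was -0.25 in SD vs. 2% HS and -0.07 in MET vs. SD. Ckm, muscle creatine kinase, lay between 289 and 327 CPM in 2% HS (median 309) and between 121 and 153 CPM in MET (median 139), a log2 fold change of -1.14 (SE 0.09, edgeR adjusted p = 2.3e-11). Its mitochondrial partner Ckmt2 fell by 1.46, the calcium buffer Pvalb by 1.43, the fast myosin-binding protein Mybpc2 by 1.20 and the slow regulatory light chain Myl2 by 1.18. The 2% HS and MET libraries did not overlap for any of these 5 genes. Ttn, the giant spring of the sarcomere, fell by 0.49 from a median of 31052 to 22487 CPM and made up most of the myotube marker sum. Acta1, skeletal actin, fell by 0.17. Mylpf and Casq2 were higher by 0.20 each.

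Of the 6 myosin heavy chains, 3 were lower and 0 higher. Myh7, the slow and cardiac form, lay between 263 and 342 CPM in 2% HS (median 298) and between 156 and 197 CPM in MET (median 178), a fall of 0.74 on the log2 scale (SE 0.08). The fast forms Myh1 and Myh4 both fell by 0.35 (SE 0.06 and 0.09, edgeR adjusted p = 8.3e-06 and 0.0053), from medians of 2270 to 1792 CPM and 83.3 to 67.4 CPM. The groups of these 3 genes did not overlap, and Myh4 in 2% HS included a replicate at 98.2 CPM where the other 5 lay between 79.6 and 85.3 CPM. The embryonic Myh3 (0.09), the perinatal Myh8 (0.05) and the fast Myh2 (0.00, SE 0.12) were not called, and their groups overlapped. Against SD the log2 fold changes of the 6 lay between -0.08 and 0.11. The genes of this family share long stretches of sequence, and how reads common to them were counted is not known.

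Myogenic regulators moved less, with 11 of 24 lower and 2 higher and a median of -0.09. The Notch targets Hey1 and Heyl both fell by 0.70, Myf6, the late myogenic factor, by 0.59, and Mymx, the fusion micropeptide, by 0.50. Pax7, the marker of satellite cells, fell by 0.36 from a median of 191 to 149 CPM. In the list of 6 myoblast markers that holds it, 2 were lower and 2 higher, with a range from -0.36 to 0.59. Myog, which commits myoblasts to fusion, was not called, at 994 to 1067 CPM in 2% HS and 1036 to 1075 CPM in MET. Id1, an inhibitor of myogenic factors, was higher by 0.42.

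Genes of the extracellular matrix rose. Of 19 fibrillar and network collagens 16 were higher and 1 lower (median 0.54), and of 27 proteoglycans and matricellular proteins 18 were higher and 5 lower (median 0.44). Dpt (chr1:164796644-164824266), dermatopontin, lay between 4.95 and 6.32 CPM in 2% HS (median 5.86) and between 41.9 and 50.5 CPM in MET (median 45.5), a log2 fold change of 2.98 (SE 0.07, edgeR adjusted p = 8.4e-36). Thbs2, the anti-angiogenic thrombospondin, went from 72.8 to 92.9 CPM (median 78.5) to 313 to 339 CPM (median 324), a rise of 2.01 (SE 0.05). Col12a1, which links fibrils, went from 1234 to 1326 CPM (median 1288) to 2764 to 3064 CPM (median 2939), a rise of 1.19 (SE 0.04). In all 3 genes every MET library stood above every library in 2% HS, and SD medians of 48.1, 334 and 2900 CPM lay at the level of MET.

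Col15a1, a basement membrane collagen, rose by 2.05, Lum (lumican) by 2.11, Aspn (asporin) by 1.28 and Col6a3 by 1.08. The abundant Col3a1, Fn1 and Sparc rose by 0.90, 0.67 and 0.57. Col14a1 was the 1 lower collagen (-1.46), and the 5 lower matrix proteins were Nid2 and Nid1 of the basement membrane, Vcan, Loxl2 and Fbln2. The fibroblast marker list shares Dpt, Lum, Dcn, Col1a1 and Col3a1 with these lists, and its sum did not overlap between the groups. Its part in the matrix result was not tested. The medians of the 2 lists in MET vs. SD were 0.02 and 0.0057.

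Matrix proteases and their inhibitors went both ways, with 7 of 19 higher and 8 lower (median -0.09). Adamts5, which cleaves aggrecan and versican, fell from 149 to 165 CPM (median 157) to 73 to 81 CPM (median 78.2), by 1.02 on the log2 scale (SE 0.05). Plau fell by 0.58. Timp1 rose by 0.55. Among targets of YAP and of actin and SRF, 12 of 26 were lower and 5 higher. Ccn2 and Cnn1 fell by 1.12 and 1.18, and F3, tissue factor, rose by 1.10. Ccn2 lay between 98.0 and 122 CPM in 2% HS and between 46.6 and 56.7 CPM in MET.

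**Figure D3:**
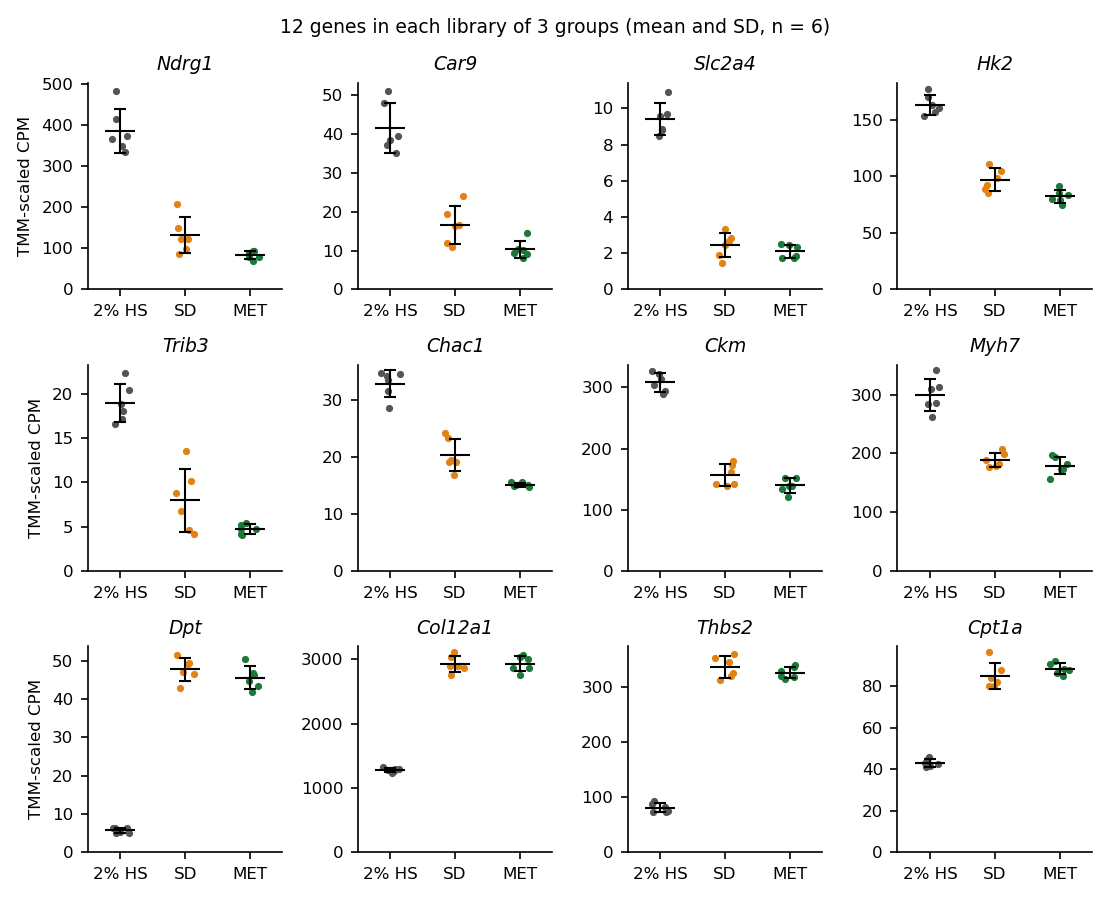
Level of 12 genes in every library (y axis, TMM-scaled CPM from 0) of 2% HS, SD and MET (x axis, 6 points a group), with the mean and standard deviation in black. The MET points lie below the 2% HS points for Ndrg1, Car9, Slc2a4, Hk2, Trib3, Chac1, Ckm and Myh7 and above them for Dpt, Col12a1, Thbs2 and Cpt1a.

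Outside the matrix lists the largest rises were these, with the ribosomal RNA gene n-R5-8s1 (2.43) given under other observations. Akr1c14 (chr13:4049011-4090688), a hydroxysteroid dehydrogenase, lay between 2.63 and 3.33 CPM in 2% HS (median 3.10) and between 27.5 and 31.8 CPM in MET (median 29.1), a log2 fold change of 3.28 (SE 0.09, edgeR adjusted p = 2.1e-32). Slc6a2, the noradrenaline transporter, went from 0.823 to 2.13 CPM (median 1.68) to 13.9 to 17.2 CPM (median 15.2), a rise of 3.26. Ly6d, a surface antigen, rose by 3.26, Aplnr, the apelin receptor, by 2.98, Oxtr, the oxytocin receptor, by 2.74 and Pgr, the progesterone receptor, by 2.40. Every one of these had all MET libraries above all libraries in 2% HS. Enpp2, which makes lysophosphatidic acid, rose by 2.48, Fam198a by 2.52, the Wnt antagonist Sfrp2 by 2.31 and Aff3 by 2.23. Sfrp2 reached 57.2 to 73.2 CPM from 10.6 to 15 CPM. For the genes given here from Akr1c14 to Aff3, the MET minus SD log2 fold changes lay between -0.095 (Fam198a) and 0.23 (Enpp2), and none was called. Of the gene models without a name, Gm12248 rose most (3.30) and Gm11243 fell most (-2.06).

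Among the largest falls outside the hypoxia list were Fam107a (-2.10), Gpr39, a zinc-sensing receptor (-2.06), and Slc5a5, the sodium and iodide symporter (-2.03). Another was Nmrk2 (-1.90), a muscle kinase that phosphorylates nicotinamide riboside on the route to NAD. Nmrk2 lay between 20.6 and 23.4 CPM in 2% HS and between 4.13 and 7.31 CPM in MET. Gpr39 lay between 3.72 and 5.08 CPM in 2% HS, between 0.308 and 0.874 CPM in SD and between 0.439 and 1.48 CPM in MET. Its MET minus SD log2 fold change of 0.70 did not pass the test (adjusted p = 0.35).

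Genes of fatty acid use were divided. Of 30 genes of fatty acid oxidation and of PPAR and FoxO targets, 6 were higher and 10 lower. Angptl4, an inhibitor of lipoprotein lipase, went from 9.62 to 14 CPM (median 11.2) to 39.7 to 48.2 CPM (median 43.8), a rise of 1.97 (SE 0.07, edgeR adjusted p = 4.2e-27). Its SD median was 40.0 CPM. Cpt1a, which admits fatty acids to mitochondria, rose by 1.04 from 41.0 to 45.9 CPM to 84.6 to 91.9 CPM, and Lpl by 1.00. The groups did not overlap in these genes, nor in Ucp3, a mitochondrial carrier that fell by 1.38, and Ppargc1a, the coactivator of mitochondrial biogenesis that fell by 1.24. Ppargc1a lay between 7.39 and 10.2 CPM in 2% HS, between 3.52 and 4.06 CPM in SD and between 2.57 and 4.96 CPM in MET. Fatty acid synthesis had 1 of 17 genes higher and 5 lower, which at 35.3% called is near the 35% of all genes, with Acacb at -0.46. Cholesterol synthesis and uptake had 6 of 25 higher and 6 lower (48% called), from Dhcr7 at -0.43 to Pmvk at 0.48.

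The AMPK genes, which bear on the known action of metformin, were mixed. The muscle subunit Prkag3 lay between 155 and 169 CPM in 2% HS (median 167), between 91.1 and 115 CPM in SD (median 102) and between 81.8 and 94.4 CPM in MET (median 90.8). It fell by 0.87 vs. 2% HS (SE 0.05, edgeR adjusted p = 1e-20), and its difference of -0.19 from SD did not pass (adjusted p = 0.064). Prkaa2 and Prkab2 fell by 0.20 and 0.19 with overlapping groups, Prkag2 and Prkag1 rose by 0.51 and 0.21, and Prkaa1 (-0.04) and Prkab1 (-0.01) were not called. Camkk2, an upstream kinase, rose by 0.27. In all 5 of 13 tested genes of this list were higher and 4 lower. Transporters that carry metformin across membranes had too few counts to be tested, with totals over the 6 MET libraries of 1 for Slc22a2, 0 for Slc22a3 and Slc29a4 and 10 for Slc47a1. A count of 0 in 1 library allows up to 3 counts, or between 0.179 and 0.205 CPM in MET.

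Of 82 cytosolic ribosomal protein genes 44 were higher, 2 were lower and 36 were not called, with a median of 0.19. Of 35 proteasome subunits 19 were higher, 0 were lower and 16 were not called, with a median of 0.14. The shares called in these lists were 56.1% and 54.3%, against 35% of all genes. Rpl26 went from 13.3 to 16.8 CPM (median 14.7) to 19.6 to 31.1 CPM (median 24.8), a rise of 0.73 (SE 0.13). Rpl36a rose by 0.61, and the proteasome genes Psmb6 and Psma7 by 0.31 each. Ribosomal protein genes have many processed copies in the genome, and reads shared with them could have been split. The list's median was 0.09 in SD vs. 2% HS with 9 genes higher, and 0.09 in MET vs. SD with 2 called, Rpl17 and Rpl23a.

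Of 60 nuclear genes of oxidative phosphorylation 18 were higher and 6 lower (median 0.08). At 40% called, this list is near the 35% of all genes. Ndufa13, of complex I, went from 34.6 to 40.2 CPM (median 36.2) to 47.8 to 71.8 CPM (median 64.0), a rise of 0.74 (SE 0.12, edgeR adjusted p = 1.3e-05). SD lay between 33.6 and 50.8 CPM, and the MET minus SD value of 0.52 did not pass (adjusted p = 0.062). Of 13 mRNA genes of the mitochondrial genome 3 were higher and 0 lower, namely mt-Nd1 (0.43), mt-Nd2 (0.50) and mt-Nd6 (0.50). At 23.1% called, this list lies below the 35% of all genes. The share of counts on mitochondrial ribosomal RNA was between 0.429 and 0.705% in 5 of the 6 MET libraries, 0.244% in the other and at most 0.306% in 2% HS, and its part in these 3 calls was not tested. The call of mt-Nd2 was lost under 11 of the alternative settings and that of mt-Nd1 under 5.

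Beside the proteasome, other genes of protein breakdown went both ways. Of 21 atrophy ligases and FoxO genes 4 were higher and 5 lower (42.9% called, against 35% of all genes). Klf15, a transcription factor of glucocorticoid response and amino acid catabolism, fell by 1.75 from 1.90 to 3.25 CPM to 0.468 to 0.897 CPM. Of the classic atrophy ligases, Trim63 was higher by 0.18 and Fbxo32 was not called (-0.06). Of 38 autophagy and lysosome genes 10 were higher and 9 lower (50% called). The list was led by Bnip3, a mitophagy receptor and hypoxia target (-0.89), and Ulk1, the kinase that starts autophagy (-0.51).

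Early genes, which serum induces at once in quiescent cells, were more often higher than lower after 4 days without it, with 18 of 33 higher and 4 lower and a median of 0.17. Klf2 rose by 0.75 and Klf10 by 0.62, and Nr4a3 fell by 0.53. Klf10 lay between 85.7 and 98.5 CPM in 2% HS and between 137 and 152 CPM in MET. Egr1 was higher in MET than in 2% HS (0.31) and than in SD (0.20, edgeR adjusted p = 0.019).

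Of 26 p53 targets and inhibitors of cyclin-dependent kinases 12 were higher and 3 lower. Cdkn1a, p21, went from 1643 to 1857 CPM (median 1773) to 2190 to 2383 CPM (median 2316), a rise of 0.38 (SE 0.04, edgeR adjusted p = 1.9e-10). Its SD median was 2339 CPM. Trp53inp1 rose by 0.71, the death receptors Fas and Eda2r by 0.56 each and Zmat3 by 0.55. Cdkn2c rose by 0.34, and neither Trp53 (0.10) nor Pdlim4 (0.08) was called. Cdkn2a and Cdkn2b were at 0 counts in all 30 libraries, which allows up to 3 counts in each, or between 0.153 and 0.235 CPM. Of 37 DNA replication genes 7 were higher and 2 lower, or 24.3% called against 35% of all genes. Gins3 was higher by 0.46, and Gins2 by 0.63 with overlapping groups and a call that was lost under 6 of 23 alternative settings. Of 34 mitosis genes 0 were higher and 1 was lower, Ccnb1 (-0.36), or 2.94% called.

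Secreted signals went both ways, with 12 of 25 chemokines, cytokines and SASP factors higher and 9 lower. SASP is the secretion of senescent cells. Hgf, hepatocyte growth factor, went from 25.4 to 29.8 CPM (median 28) to 71.2 to 84.0 CPM (median 76.8), a rise of 1.47 (SE 0.07). Its SD median was 69.8 CPM. Cxcl14 rose by 1.05 and Ccl8 and Cxcl1, both near the limit of detection, by 1.29 and 1.28 with overlapping groups. Gdf15 and Vegfa, given above, were among the 9 that fell. Of 20 genes of the IGF and insulin axis 6 were higher and 9 lower. Igfbp5, an abundant IGF-binding protein of myotubes, fell by 0.79 from 3975 to 4220 CPM to 2253 to 2469 CPM, while Igfbp6 rose by 0.75 and Igf1 by 0.43. In the TGF-beta, BMP and myostatin axis 9 of 25 were higher and 7 lower, with the ligands Bmp6 and Inhba at -0.91 and -0.78.

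Gene types differed in direction. Of 12628 protein-coding genes 20.9% were higher and 17.4% lower. Of 3279 other genes 4.09% were higher and 18% lower, with 134 and 591 calls. Sense intronic transcripts had 1 of 172 higher and 42 lower, transcripts of the provisional annotation class TEC 19 of 1058 and 226, antisense transcripts 9 of 332 and 69, and long intergenic RNAs 22 of 391 and 86. Small nucleolar RNAs had 18 of 98 higher and 9 lower. In SD vs. 2% HS the other genes had 80 higher and 441 lower. Many of these models lie inside or opposite coding genes, and the counting's use of strand is not given in the sources used here, so reads of the 2 cannot be told apart.

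**Figure D4:**
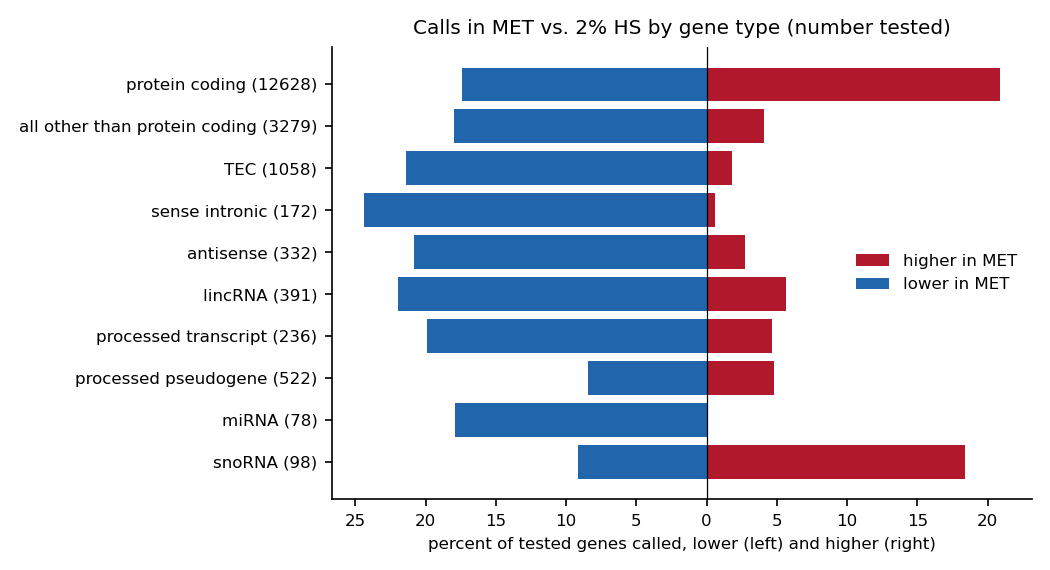
Percent of tested genes (x axis) called lower (blue, left of 0) and higher (red, right of 0) in MET vs. 2% HS for protein-coding genes, all other genes and 8 of their types (y axis, number tested in brackets). Protein-coding genes reach 20.9% higher and 17.4% lower, and the other genes together 4.09% and 18%.

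MET differed from SD, serum deprivation alone, in few genes. In MET vs. SD 12 were higher and 13 lower (0.0754% and 0.0817% of genes), and 1597 (10%) had an unadjusted p under 0.05. Fgf11, an intracellular relative of the fibroblast growth factors, had the smallest adjusted p, at 83.0 ± 4.03 CPM in 2% HS, 63.5 ± 2.83 in SD and 53.4 ± 1.59 in MET (mean ± SD, n = 6 each), a MET minus SD log2 fold change of -0.25 (SE 0.04, edgeR adjusted p = 0.0056). Pdcd4, an inhibitor of translation that mTOR signalling removes, was at 33.8 ± 2.52, 36.4 ± 2.40 and 44.7 ± 1.51 CPM in the same order, a difference of 0.30. Aldh1l2, a mitochondrial folate enzyme, was at 59.8 ± 5.39, 36.3 ± 4.84 and 28 ± 2.05 CPM, a difference of -0.37. The cap-binding gene Ncbp2 was higher (0.30), and Adgrg1 (-0.33), Gm49759 (-0.24), Rubcn (-0.20) and Bhlhe40 (-0.19) were lower. Bhlhe40, a hypoxia and clock gene, was at 352 ± 8.12 CPM in 2% HS, 297 ± 14.9 in SD and 261 ± 7.69 in MET. The count is not stable, since 162 genes were called without MET+LEU replicate 6, 120 by DESeq2 and 80 by limma-voom. Leaving out MET replicates 1, 2, 3, 4 or 5 gave 13, 45, 11, 4 and 8, and leaving out SD replicates 2, 3 or 6 gave 5, 41 and 69.

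**Figure D5:**
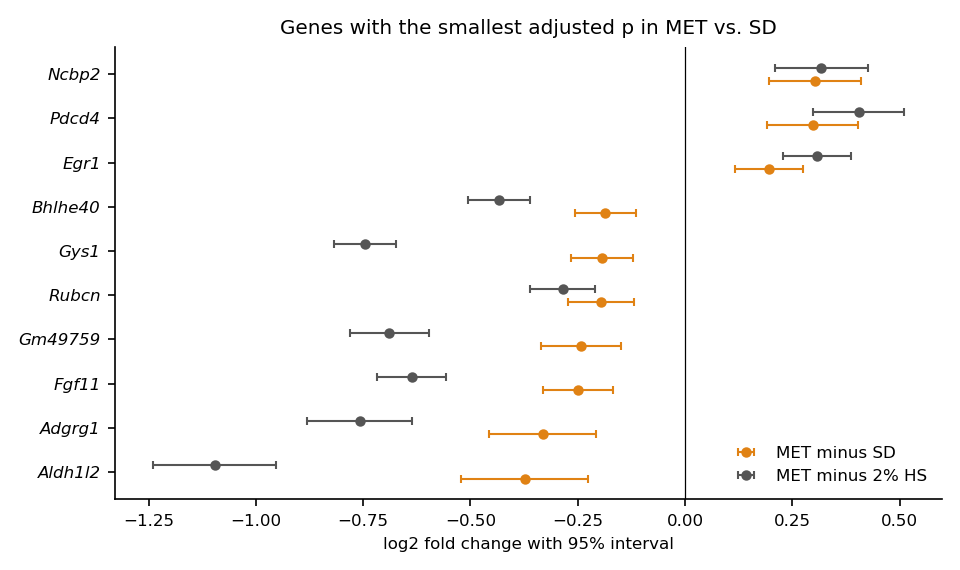
Log2 fold changes (x axis, with 95% intervals as bars) of the 10 genes with the smallest adjusted p in MET vs. SD (y axis), as MET minus SD (orange) and MET minus 2% HS (grey), which share the MET libraries. The orange points lie between -0.37 and 0.30, and the grey points between -1.10 and 0.40.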

How the data were processed

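Counts per gene were those the authors deposited, whole numbers without normalization for 55487 Ensembl genes. Libraries were stranded total RNA with ribosomal RNA removed, read as 150 bp pairs. The submitters' processing notes name cutadapt 1.16, STAR 2.7.6a, featureCounts 1.6.3, DESeq2 1.30.1 and GRCm38, while the annotation release and the strand setting are not given in the sources used here. GENCODE M21 gave symbols, types and coordinates for 55141 IDs, and 346 had no match. Promoter sequences came from RefSeq (GRCm38.p6).

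The analysis ran in R 4.3.3 with edgeR 4.0.16. Low genes were removed by filterByExpr, with a minimum count of 10 and a minimum total of 15 over the 5 groups. The rest were scaled by TMM and fitted over all 30 libraries with a mean per group (glmQLFit, robust). Contrasts were tested by the quasi-likelihood F test. The SE of a log2 fold change is its size over the square root of F, and 95% intervals are 1.96 SE. Log2 CPM used a prior count of 2. The biological coefficient of variation was 0.0709. Replicates of a group differed by more than counting noise (chi-square per degree of freedom 2.33 to 11.4), so no pair was taken for repeat deposits of 1 library. This does not show that they were separate cultures. Same-numbered libraries of the 2 groups correlated between -0.03 and 0.04 in their deviations and were not treated as pairs. In simulated data for MET vs. 2% HS over 15907 genes, 162 of 200 genes changed 1.5-fold were recovered (81%), with 9 false calls among 171. The changed genes left out those at the lowest levels and were a far smaller share than the 35% called in the data. The recovery therefore does not hold for all genes tested.

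The members, 34 gene lists and the tests were chosen with earlier results of these data known. The lists of hypoxia-inducible factor genes and of glycogen metabolism were written after values were seen. The genes named were, among 2956 called genes whose groups did not overlap and whose mean log2 CPM reached 1, the 12 named genes with the largest rises and the 12 with the largest falls and the top unnamed model each way, up to 4 called members of each list with the largest change, the myosin heavy chains, AMPK subunits, Trp53, Cdkn1a, Cdkn2c and Pdlim4, and the 10 genes with the smallest adjusted p in MET vs. SD. Other called genes that are named were chosen after their values were seen. Some genes that the rule names are not reported here. No set test was run. Alternatives were DESeq2's size factors, upper-quartile scaling, DESeq2 1.42.0, limma-voom (limma 3.58.1), other filters, models of fewer libraries, a replicate block, a fit without the robust option, adjusted p under 0.01 and each library left out in turn. Limits on a count of 0 cover counting error only. Intervals come from the SE of the quasi-likelihood test, which covers counting error and the spread between these libraries only.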

Additional observations from a re-analysis of the deposited data

Results flagged for a closer look

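In each group of 6 libraries, the highest or lowest value was set against the rest with Dixon's ratio at its 95% critical value. Of 362 groups tested 18 passed, and chance passes about 1 in 20. In 2% HS these were Angptl4 at 14 CPM in replicate 6 (others 9.62 to 11.3), Col6a3 at 328 and Mgst1 at 4.46 CPM in replicate 5, Mdm2 at 124 and Fgf11 at 75.2 CPM in replicate 2, and Camkk2 at 33.6, Myh4 at 98.2, Amotl1 at 414 and Slc2a1 at 153 CPM in replicate 1. The share of nuclear ribosomal RNA was 0.702% in 2% HS replicate 5, where the others lay between 0.217 and 0.378%.

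In MET these were C1s1 at 26.3, Prkag2 at 10.2, Slc2a1 at 75.6 and Pfkfb3 at 28.2 CPM in replicate 6, Igfbp6 at 27.3, Prkab2 at 68.8 and Slc40a1 at 21.5 CPM in replicate 2, and Slc39a7 at 37.6 CPM in replicate 3. The ratio was largest for C1s1 (0.85). What set these libraries apart in these genes was not tested.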

How the results depend on the processing

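The number of genes called in MET vs. 2% HS lay between 3912 (adjusted p under 0.01) and 6590 (limma-voom), and between 5082 and 5337 when a library of either group was left out, with 2531 to 2683 higher and 2532 to 2657 lower. The share of calls that were higher lay between 46.7% (upper-quartile scaling) and 52.3%, and no scaling moved the median of all genes by more than 0.0103. Of the 170 named genes called, 161 kept their call under all settings and 0 changed direction, while 9 lost it under at least 1, among them Gbp7, Gins2, Nqo1, mt-Nd1, mt-Nd2, Fen1, Tfrc and Acss2.

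The count for MET vs. SD was 120 with DESeq2, 80 with limma-voom, 105 without a filter, 162 without MET+LEU replicate 6 and 3 at an adjusted p under 0.01, and 4 to 69 when a library was left out. With the replicate number as a block it was 52, and 5711 for MET vs. 2% HS. The numbers did not pair the libraries, since 0 of the 6 MET libraries correlated best with its own number.

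List medians moved without a filter to -0.142 for matrix proteases, 0.2 for interferon genes, -0.0134 for fatty acid oxidation, 0 for AMPK and -0.498 for retinoid and thyroid genes. Under a filter of 10 counts in every library they moved to 0.0708 for chemokines and SASP, -0.00863 for fatty acid oxidation and 0.0244 for retinoid and thyroid genes. Leaving out a library gave 0.152 to 0.2 for early genes, 0.175 to 0.364 for chemokines and SASP, 0.188 to 0.282 for interferon genes, 0.0233 to 0.0542 for the TGF-beta axis (0.0597 without MET+LEU replicate 6) and -0.563 to -0.517 for glycogen metabolism. Fewer or more members pass another filter, and other causes were not tested.

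The log2 fold changes of 2 genes that were not called changed sign about 0. Myh2 was -0.0099 with upper-quartile scaling, -0.00758 with limma-voom and -0.00791 under the filter of 10 counts, and -0.0395 to 0.054 when a library was left out. Prkab1 was 0.00372 with limma-voom and 0.00167 without a filter, and -0.0497 to 0.0219 when a library was left out.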

Other observations

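Serum also carries hormones, vitamins and trace metals. Of 14 genes of retinoid and thyroid hormone response 6 were lower and 3 higher. Dhrs3, a retinal reductase, lay between 12.5 and 15.8 CPM in 2% HS and between 5.25 and 6.67 CPM in MET (log2 fold change -1.26, SE 0.10, edgeR adjusted p = 5.9e-14). Klf9, a target of thyroid hormone and glucocorticoids, fell by 1.08 and Cyp26a1, which degrades retinoic acid, by 0.93. Of 21 selenoprotein genes 5 were lower and 4 higher (42.9% called, against 35% of all genes). The list was led by the extracellular peroxidase Gpx3, at 424 to 481 CPM in 2% HS and 162 to 192 CPM in MET (-1.36). The metallothioneins Mt1, Mt2 and Mt3, which bind zinc, fell by 0.65, 0.75 and 1.32, and of the 13 genes of their list 3 were lower and 4 higher. The iron exporter Slc40a1 fell by 1.40, in a list of 10 iron genes with 3 lower and 2 higher (50% called). Of 20 glucocorticoid and clock genes 5 were lower and 5 higher (50% called), among them Ciart (-0.64), a repressor of the clock.

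Defence genes were mostly at low level. Of 22 interferon and antigen presentation genes 8 were higher and 1 lower (40.9% called, against 35% of all genes). Rsad2 lay at a median of 0.522 CPM in 2% HS and 1.87 CPM in MET with overlapping groups (log2 fold change 1.68). Of 10 complement genes 3 were higher and 2 lower (50% called), with C1s1 and C1ra up by 1.06 and 0.80. Of 26 antioxidant genes of NRF2 and thioredoxin 13 were higher and 3 lower, with Mgst1 at 0.95 and Slc7a11 at -0.82.

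Structural RNAs were also measured. The 5.8S ribosomal RNA gene n-R5-8s1 lay between 0.232 and 2.02 CPM in 2% HS and between 3.15 and 7.98 CPM in MET (log2 fold change 2.43, SE 0.72, edgeR adjusted p = 0.0099). In SD it lay between 0.531 and 4.92 CPM, which overlapped both groups. It was called neither in SD vs. 2% HS nor in MET vs. SD (edgeR adjusted p = 0.44 and 0.42). Ribosomal RNA had been removed from the libraries, and the part of that removal in these values was not tested. Rn7s1, an RNA of the signal recognition particle and chosen after its values were seen, lay between 62.6 and 84.0 CPM in 2% HS, between 84.2 and 141 CPM in SD and between 100 and 745 CPM in MET.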
